A study of Homo sapiens with 12 samples.

Results

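Perilipins and related lipid droplet proteins were followed as a group of 10 genes out of the 23705 genes of the count table. The members were chosen by name, with earlier results of these data known. The group holds the 5 perilipins (*PLIN1* to *PLIN5*), the 3 CIDE genes (*CIDEA*, *CIDEB* and *CIDEC*) and a pair of small droplet regulators, *HILPDA* and *G0S2*. RNA-seq was done on A375 cells, an established human melanoma line, cultured for 24 h. They received vehicle (DMSO), rosiglitazone (RGZ, a PPARγ agonist) at 5 μM, T0070907 (a PPARγ antagonist) at 2 μM, or both compounds at these doses, called the combination. Each of the 4 conditions had 3 libraries, 1 from each of 3 independent experiments, and technical replicates of a condition were pooled as RNA before sequencing. The p-values given here therefore reflect variation between separate experiments on a single cell line. Where a model holds the experiment as a term, they reflect only the variation left after shifts that the conditions of an experiment share. Library totals ranged from 8319455 to 8687191 counts in vehicle, from 9001174 to 10096418 in RGZ, from 8524144 to 11375227 in T0070907 and from 8426908 to 9471903 in the combination. Levels are given as CPM, the count relative to the library's total as scaled by edgeR's TMM factors, and 3 counts, taken as the detection floor, were worth 0.258 to 0.371 CPM depending on the library. Floors and the interval of a pooled count ratio cover counting error only, while intervals of log2 fold changes also hold the spread between libraries.

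Lipid droplets are organelles that hold triglycerides and sterol esters under a phospholipid monolayer, and perilipins are the proteins that coat this monolayer and control the access of lipases to the stored lipid. CIDE proteins sit where droplets touch and move lipid from the smaller to the larger droplet, while the small proteins HILPDA and G0S2 inhibit adipose triglyceride lipase, the enzyme that starts triglyceride breakdown. Several perilipin and CIDE genes are known targets of PPARγ in adipocytes, where *PLIN1* and *CIDEC* are typical of the mature cell.

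Of the 10 members, 5 passed edgeR's filter on low counts and were tested among 13522 genes (*PLIN2*, *PLIN3*, *PLIN4*, *CIDEB* and *HILPDA*). The other 5 (*PLIN1*, *PLIN5*, *CIDEA*, *CIDEC* and *G0S2*) stayed under the filter. The order of levels between genes was read per kb of each gene's longest transcript. In vehicle it ran from *PLIN2* at 196 ± 10.1 CPM per kb (SD, n = 3) through *PLIN3* at 54.7 ± 8.0, *HILPDA* at 14.8 ± 1.09 and *CIDEB* at 5.86 ± 0.425 to *PLIN4* at 1.13 ± 0.398. *CIDEC* came next at 0.396 ± 0.283 CPM per kb, and *G0S2*, *PLIN1* and *PLIN5* lay between 0.0321 and 0.136, with *CIDEA* at 0. No neighbours among *PLIN2*, *PLIN3*, *HILPDA*, *CIDEB* and *PLIN4* overlapped within 1 SD, whereas *CIDEC* overlapped *G0S2*, and all members below *PLIN4* averaged a few counts per library or fewer.

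*PLIN2* (NCBI gene 123), the perilipin that coats droplets in most cell types outside fat, was the member with the highest level. Its counts were 3218, 3265 and 3442 in the vehicle libraries of experiments 1, 2 and 3, and 20170, 22305 and 24407 in the RGZ libraries. They were 1490, 2001 and 2064 in the T0070907 libraries and 2928, 4317 and 6880 in the combination libraries. All 3 RGZ libraries stood far above the other 9 and all 3 T0070907 libraries below the other 9, while the combination libraries overlapped vehicle and spread more widely. The mean level was 386 ± 19.9 CPM in vehicle, 2374 ± 242 in RGZ, 176 ± 3.73 in T0070907 and 518 ± 196 in the combination (SD, n = 3). Per kb of transcript, *PLIN2* moved from rank 261 in vehicle to rank 18 in RGZ among 13305 tested genes of known length. *PLIN4* (NCBI gene 729359), a long perilipin that binds small, newly formed droplets, had 44, 85 and 59 counts in vehicle and 998, 1674 and 892 counts in RGZ. Its T0070907 libraries held 12, 19 and 12 counts and its combination libraries 45, 129 and 152. As for *PLIN2*, the RGZ libraries were the highest, the T0070907 libraries the lowest, and the combination libraries overlapped vehicle. The mean level was 7.35 ± 2.58 CPM in vehicle, 128 ± 54.7 in RGZ, 1.37 ± 0.334 in T0070907 and 11.8 ± 5.58 in the combination (SD, n = 3). The rank of *PLIN4* per kb went from 11262 in vehicle to 3652 in RGZ.

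**Figure D1:**
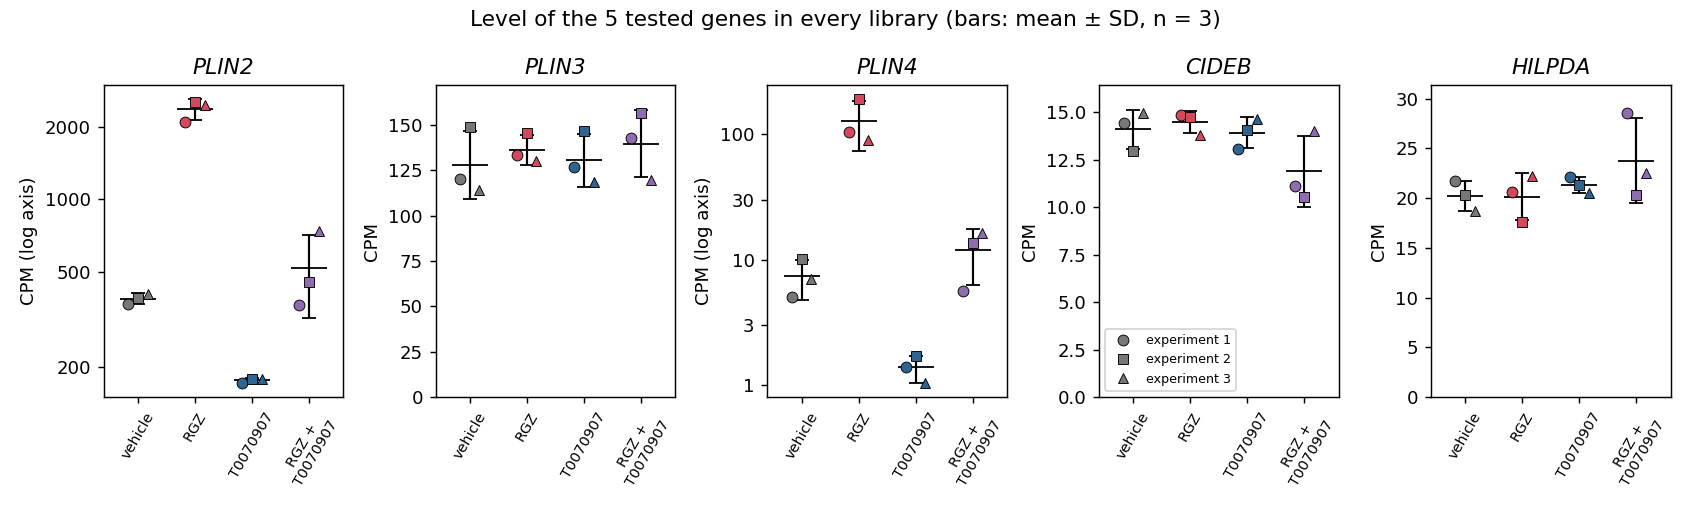
Level in CPM of the 5 tested genes in each of the 12 libraries, by condition, with the mean and SD of 3 libraries as bars and the experiment as symbol; the axes of *PLIN2* and *PLIN4* are logarithmic. *PLIN2* averaged 2374 CPM in RGZ and 176 in T0070907 and *PLIN4* 128 and 1.37, while the conditions overlapped for *PLIN3*, *CIDEB* and *HILPDA*.

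The promoters of *PLIN2* and *PLIN4* are shown because both genes moved together across the conditions. They are the 250 bases before the annotated start, from RefSeq on GRCh38.p14, at chr9:19127493-19127742 (minus strand) for *PLIN2* and at chr19:4518487-4518736 (minus strand) for *PLIN4*, written 5′ to 3′ along the gene. Capitals mark the stretches closest, on either strand, to a DR1 element, AGGTCANAGGTCA, the repeat of AGGTCA with 1 base between that PPARγ and its partner RXR are known to bind.
PLIN2: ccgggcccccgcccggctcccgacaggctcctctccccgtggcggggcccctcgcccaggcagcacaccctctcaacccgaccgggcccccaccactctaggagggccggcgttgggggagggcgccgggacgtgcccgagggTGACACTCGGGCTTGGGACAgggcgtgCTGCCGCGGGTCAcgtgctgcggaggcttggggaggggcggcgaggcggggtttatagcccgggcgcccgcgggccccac
PLIN4: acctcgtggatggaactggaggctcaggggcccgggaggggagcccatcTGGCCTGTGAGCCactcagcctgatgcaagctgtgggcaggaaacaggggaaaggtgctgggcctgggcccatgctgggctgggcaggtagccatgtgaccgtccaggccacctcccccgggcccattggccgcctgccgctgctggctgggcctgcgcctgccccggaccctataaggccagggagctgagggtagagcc
In *PLIN2* the closest stretches differed from DR1 at 5 of 12 fixed positions, in 3 overlapping or neighbouring places, and 99.4% of the 35116 RefSeq promoters hold a stretch at least as close in the same window. In *PLIN4* the closest stretch differed at 3 positions, on the opposite strand, 201 to 189 bases before the start, and 18% of promoters hold 1 at least as close. Of the other members, *CIDEB*, which was not called in RGZ, and *CIDEC* each have an entry with a stretch as close as that of *PLIN4*, at 3 positions. Of the 10 members, 9 have an entry in this table, with 11 entries in all, and *HILPDA* is missing. The single motif AGGTCA was found, on either strand, in 0 of the 11 entries, and 12.1% of all promoters hold it. The RefSeq start of *PLIN2* lies inside the longer Ensembl gene, which spans chr9:19108375-19149290. The *PLIN2* window was 78% G and C with 28 CpG pairs and the *PLIN4* window 69.2% with 8, beside medians of 58% and 11 over all promoters. These windows are short, and elements elsewhere in the loci were not searched.

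RGZ against vehicle asks what the agonist changes on its own. It raised *PLIN2* by 6.14-fold (log2 fold change 2.62, SE 0.20, 95% confidence interval 2.18 to 3.06) and *PLIN4* by 17.5-fold (4.13, SE 0.39, interval 3.28 to 4.98). The increase was present in 3 of 3 experiments for both genes, with ratios of 5.74, 6.55 and 6.12 within experiments 1, 2 and 3 for *PLIN2* and of 20.8, 18.9 and 13.04 for *PLIN4*. In edgeR's quasi-likelihood test, adjusted by Benjamini-Hochberg over all tested genes, the adjusted p was 0.000167 for *PLIN2* and 0.000464 for *PLIN4*. By size of increase *PLIN4* was rank 9 and *PLIN2* rank 16 of 13522 genes. *PLIN3* (log2 fold change 0.09), *CIDEB* (0.04) and *HILPDA* (-0.01) did not pass the test, with adjusted p of 0.84, 0.949 and 0.995, and the 95% intervals of the 3 genes lay between -0.30 and 0.36. Thus 2 of the 5 tested members were called, both higher, beside 1.24% of all tested genes (167, of which 128 were higher and 39 lower). The median log2 fold change of the tested members was 0.09, beside -0.01 over all tested genes. With the experiment as an added term of the model, called the replicate block, the same pair of members was called beside 9.3% of all genes (1258, of which 670 were higher and 588 lower). The number of genes called moved with the libraries: it was 45, 88 and 66 without the vehicle library of experiment 1, 2 or 3 and 88, 68 and 74 without the RGZ library of experiment 1, 2 or 3. The members called stayed 2 in all of these, and the adjusted p reached at most 0.0044 for *PLIN2* and 0.00675 for *PLIN4*. Bulk RNA cannot tell more RNA per cell from more cells that make it.

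**Figure D2:**
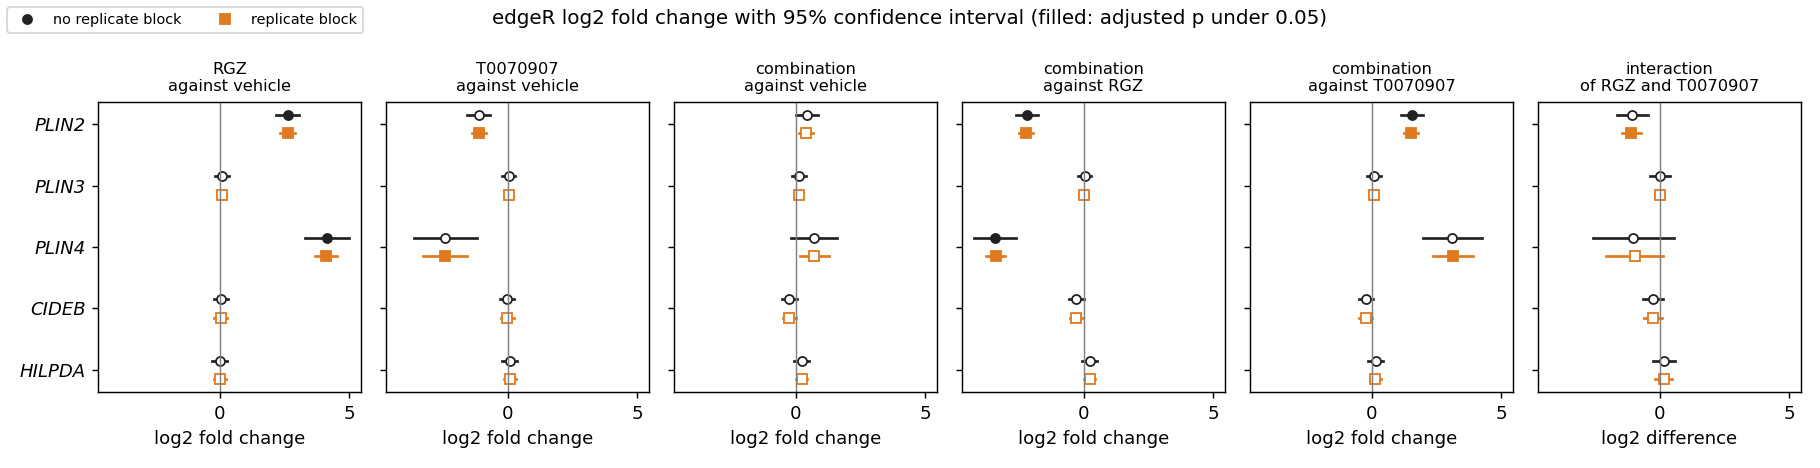
Log2 fold change of the 5 tested genes (points) with its 95% confidence interval (lines) in 6 comparisons, from edgeR without (black) and with (orange) the replicate block; filled symbols have an adjusted p under 0.05. *PLIN2* and *PLIN4* lie at 2.62 and 4.13 in RGZ against vehicle. *PLIN3*, *CIDEB* and *HILPDA* lie between -0.28 and 0.24 in all panels and are not called. In the combination against RGZ the interval of *CIDEB*, and with the block also that of *HILPDA*, leaves out 0.

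*PLIN3* (NCBI gene 10226), a perilipin held in the cytosol that moves onto young droplets, had the level second to *PLIN2* in vehicle per kb and varied little. It averaged 128 ± 18.7 CPM in vehicle, 136 ± 8.28 in RGZ, 130 ± 14.4 in T0070907 and 140 ± 18.5 in the combination (SD, n = 3), and its 12 libraries lay between 114 and 156 CPM. The conditions overlapped in all comparisons, and the library of experiment 2 was the highest of its condition each time. *PLIN1*, the perilipin of adipocytes, and *PLIN5*, that of muscle, heart and liver, were at or under the floor, with at most 3 counts in any library. *PLIN1* held 4 counts in vehicle and 4 in RGZ over 3 libraries each, and *PLIN5* held 2 and 4, so no change of either was detectable at this depth (exact two-sided permutation p = 0.8 and 0.7, where 3 against 3 libraries allow no p under 0.1).

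The summed level of the 5 perilipins was 238, 263 and 255 CPM per kb in the vehicle libraries and 1137, 1384 and 1326 in the RGZ libraries. It was 142, 154 and 141 in T0070907 and 245, 299 and 428 in the combination. Every RGZ library was above every other library, and the combination overlapped vehicle through its library of experiment 1. *PLIN2* made up 77.8 ± 2.71% of the sum in vehicle, 93.9 ± 0.757% in RGZ, 61.5 ± 2.44% in T0070907 and 79.7 ± 6.78% in the combination (SD, n = 3). The share of *PLIN3* ran the other way while its level varied little, with 21.7 ± 2.59% in vehicle, 4.58 ± 0.419% in RGZ, 38.3 ± 2.42% in T0070907 and 19.8 ± 6.84% in the combination. *PLIN4* gave 0.446% in vehicle and 1.53% in RGZ, so that its larger fold change added far less transcript than that of *PLIN2*.

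**Figure D3:**
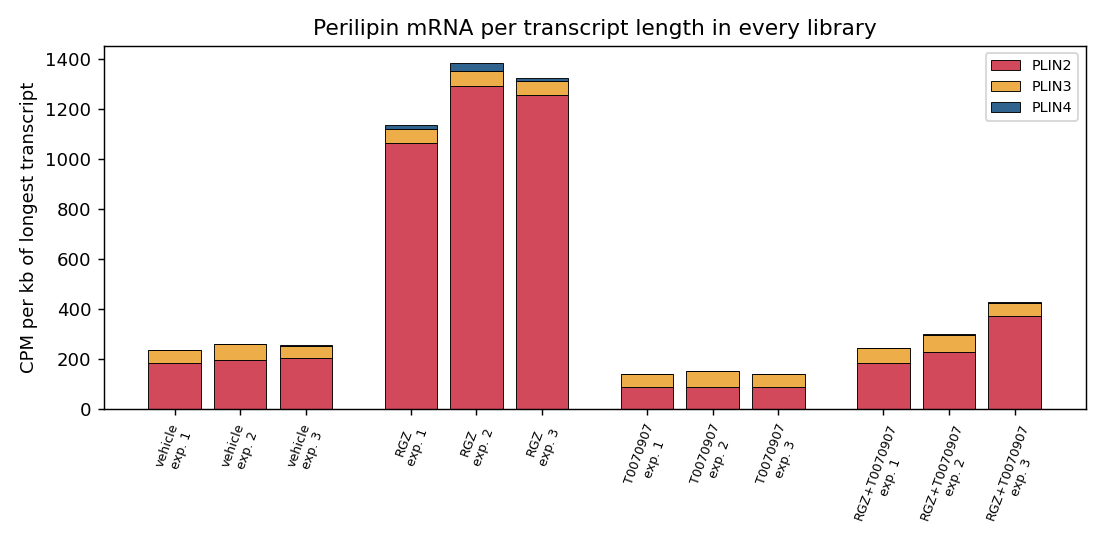
Stacked level of *PLIN2*, *PLIN3* and *PLIN4* in CPM per kb of longest transcript, a bar for each of the 12 libraries by condition and experiment (*PLIN1* and *PLIN5* are too low to draw). The RGZ bars reach 1137 to 1384 and consist almost wholly of *PLIN2*, while the T0070907 bars stay at 141 to 154.

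The CIDE genes differed in level. *CIDEB* (NCBI gene 27141), the member of liver and gut that takes part in lipoprotein lipidation, averaged 14.1 ± 1.02 CPM in vehicle, 14.5 ± 0.578 in RGZ, 13.9 ± 0.806 in T0070907 and 11.9 ± 1.88 in the combination (SD, n = 3). All conditions overlapped, and in the combination the libraries of experiments 1 and 2 were the lowest of the 12. Within experiments 1, 2 and 3 the combination was at 0.771, 0.811 and 0.939 of vehicle. It was at 0.852, 0.748 and 0.958 of T0070907 and at 0.748, 0.714 and 1.02 of RGZ. With the replicate block none of these differences passed the test (adjusted p 0.24, 0.202 and 0.134, edgeR). The locus limits what these counts say about *CIDEB*: 86.3% of the 50-base words of its longest transcript also occur in *NOP9* or *LTB4R2*, which lie on the opposite strand and share 1954 and 1276 exon bases with it, and whether reads were counted by strand is not given in the sources used here. *NOP9* averaged 11.4 CPM in vehicle and 10.4 in RGZ, with a log2 fold change of -0.14 that did not pass the test (adjusted p 0.842, edgeR), and the same held for *LTB4R2* (-0.45, adjusted p 0.804). In the combination against vehicle all 3 genes of the locus had negative values that did not pass, *CIDEB* at -0.25 (adjusted p 0.506), *NOP9* at -0.41 (adjusted p 0.459) and *LTB4R2* at -1.02 (adjusted p 0.506, edgeR), and how much of the *CIDEB* count comes from its neighbours was not tested. *CIDEC* (NCBI gene 63924), the CIDE gene of white fat that makes single large droplets, held 5, 7 and 1 counts in vehicle, 3, 31 and 10 in RGZ, 2, 5 and 4 in T0070907 and 0, 7 and 6 in the combination. Only the RGZ libraries of experiments 2 and 3 exceeded 7 counts, and vehicle and RGZ overlapped through the RGZ library of experiment 1. Pooled, the counts were 44 against 13, a ratio of 3.08 with a 95% counting interval of 1.63 to 6.24 that leaves out the spread between experiments, and the exact two-sided permutation test over libraries gave p = 0.4. The RGZ library of experiment 2 carried 31 of the 44 counts. *CIDEA*, known from brown fat, had 0 counts in all 12 libraries, which at 3 counts per library allows up to 0.371 CPM.

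*HILPDA* (NCBI gene 29923), a lipase inhibitor that hypoxia and fatty acids are known to induce, averaged 20.2 ± 1.49 CPM in vehicle, 20.1 ± 2.36 in RGZ, 21.3 ± 0.837 in T0070907 and 23.8 ± 4.26 in the combination (SD, n = 3). Its conditions overlapped throughout, and the combination library of experiment 1 was the highest at 28.5 CPM. *G0S2*, the inhibitor of adipose triglyceride lipase found in fat and liver, had at most 2 counts in any library, 3 counts in all in vehicle and 4 in RGZ (exact two-sided permutation p = 1, smallest possible 0.1). Among 12 hypoxia-induced genes set beside *HILPDA*, all tested, 1 was called in RGZ, as higher, beside 1.24% of all genes, and their median log2 fold change was -0.08 beside -0.01 over all genes. The gene called was *PDK1*, a kinase that shuts pyruvate out of the mitochondrial cycle (0.55, SE 0.11, adjusted p 0.0411, edgeR). With the replicate block 2 more were called, both lower, the oxygen sensor gene *EGLN3* (-1.25, adjusted p 0.0235) and the glucose transporter gene *SLC2A1* (-0.24, adjusted p 0.0063), so that 3 of the 12 were called beside 9.3% of all genes. In the combination against RGZ 1 of the 12 was called, as lower, beside 1.24% of all genes, and it was again *PDK1* (-0.80, SE 0.11, adjusted p 0.00738, edgeR). With the block *P4HA2* was called as lower as well (-0.32, adjusted p 0.0348), beside 11.4% of all genes.

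T0070907 against vehicle asks what the antagonist does without added agonist. *PLIN2* was at 0.471, 0.461 and 0.439 of vehicle within experiments 1, 2 and 3, and *PLIN4* at 0.277, 0.168 and 0.149, so both were lower in 3 of 3 experiments and their groups did not overlap. The log2 fold change was -1.13 (SE 0.20, 2.19-fold lower) for *PLIN2* and -2.41 (SE 0.56, 5.31-fold lower) for *PLIN4*. In edgeR's quasi-likelihood test the adjusted p was 0.16 for *PLIN2* and 0.685 for *PLIN4*, so 0 of 5 tested members were called, beside 0.0074% of all genes (1, lower). At an unadjusted p under 0.05, edgeR gave 2 members and 419 genes. Of the other tools, DESeq2 called 21 genes including both *PLIN2* and *PLIN4*, and limma-voom called 0. With the replicate block both members were called as lower, *PLIN2* at -1.13 (SE 0.13, adjusted p 0.000192) and *PLIN4* at -2.44 (SE 0.41, adjusted p 0.00491), beside 0.91% of all genes (123, of which 32 were higher and 91 lower). The gene called without the block was *TFF2*, a mucosal trefoil peptide gene named here after its value was seen (-2.31, adjusted p 0.042, edgeR).

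In edgeR without the replicate block, the call of *PLIN2* in T0070907 depended on the libraries included. Without the combination library of experiment 1 its adjusted p in edgeR was 0.0411, with 4 genes called, and without that of experiment 3 it was 0.00222, with 5 genes called. In each of the other models without a library it was above the 0.16 of the full fit, up to 0.817 without the T0070907 library of experiment 3. In a model of vehicle and T0070907 alone it was 0.0017. Over all 12 models without a library *PLIN2* stayed between -1.17 and -1.10 on the log2 scale, and *PLIN4* between -2.63 and -2.11, with adjusted p from 0.282 to 1 in edgeR. The number of genes called fell to 0 without any 1 of the vehicle libraries, of the RGZ libraries, or of the T0070907 libraries of experiments 1 and 2. *PLIN3*, *CIDEB* and *HILPDA* had log2 fold changes of 0.03, -0.02 and 0.07 and adjusted p of 1 each. The median of the 5 tested members was -0.02, beside 0.00 over all genes.

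The combination against RGZ asks what the antagonist does in the presence of the agonist. It includes what the antagonist does without added agonist, a log2 fold change of -1.13 for *PLIN2* and -2.41 for *PLIN4*. *PLIN2* was at 0.172, 0.178 and 0.298 of its RGZ level within experiments 1, 2 and 3, and *PLIN4* at 0.0536, 0.071 and 0.18. Both fell in 3 of 3 experiments with no overlap between the groups, *PLIN2* by 4.58-fold (log2 fold change -2.20, SE 0.20, adjusted p 0.000911) and *PLIN4* by 10.8-fold (-3.43, SE 0.37, adjusted p 0.00155, edgeR). These were 2 of 5 tested members, beside 1.24% of all genes (167, of which 42 were higher and 125 lower), and with the replicate block again 2, beside 11.4% (1545, of which 750 were higher and 795 lower). *PLIN3* (0.03, adjusted p 0.937), *CIDEB* (-0.28, adjusted p 0.373) and *HILPDA* (0.24, adjusted p 0.479) did not pass the test, and the median of the 5 was -0.28, beside 0.01 over all genes. At an unadjusted p under 0.05 edgeR gave 3 members, *CIDEB* among them, and 1773 genes. With the block it gave 4 members, *CIDEB* and *HILPDA* among them, and 3455 genes. Both members stayed called in each of the 12 models without a library, with adjusted p of at most 0.00636 for *PLIN2* and 0.0122 for *PLIN4*. The number of genes called was 87, 85 and 63 without the RGZ library of experiment 1, 2 or 3, and 53 and 110 without the combination library of experiment 1 or 2.

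The combination against vehicle asks what both compounds do together. It holds the effect of T0070907 as well as that of RGZ, so it does not isolate what remains of the agonist's effect. In the combination *PLIN2* was at 0.99, 1.17 and 1.82 of vehicle within experiments 1, 2 and 3, and *PLIN4* at 1.11, 1.34 and 2.35. The combination library of experiment 3 was thus the highest for both genes, and that of experiment 1 lay at the vehicle level. The log2 fold change was 0.42 (SE 0.19, adjusted p 0.469) for *PLIN2* and 0.70 (SE 0.41, adjusted p 0.551) for *PLIN4* in edgeR. Of the 5 tested members 0 were called, beside 0% of all genes, and with the replicate block again 0 beside 0%. At an unadjusted p under 0.05 edgeR gave 1 member, *PLIN2*, and 1438 genes, and DESeq2 and limma-voom both called 0 genes. With the block edgeR gave 2 members and 2868 genes at that threshold, *PLIN2* at 0.39 (95% interval 0.12 to 0.65, adjusted p 0.114) and *PLIN4* at 0.71 (0.15 to 1.27, adjusted p 0.149), so both intervals lay above 0 while neither gene passed after adjustment. Over the 12 models without a library and without the block, *PLIN2* ran from 0.08 to 0.62 and *PLIN4* from 0.40 to 1.02. The median of the members was 0.23, beside 0.00 over all genes, with *HILPDA* at 0.23, *PLIN3* at 0.13 and *CIDEB* at -0.25. The log2 ratio of the combination to vehicle was also taken as a percentage of the log2 ratio of RGZ to vehicle. *PLIN2* was at -0.583%, 8.29% and 33.1% in experiments 1, 2 and 3 (mean 13.6 ± 17.4%, SD, n = 3). *PLIN4* was at 3.52%, 9.99% and 33.2% (mean 15.6 ± 15.6%). Both genes therefore ranked the experiments alike, and the spread between experiments was at least as large as the mean. This percentage is not the share of the RGZ effect left by the antagonist, since T0070907 alone lowered both genes. Measured from T0070907, the log2 effect of RGZ was 1.55 for *PLIN2* and 3.11 for *PLIN4*, beside 2.62 and 4.13 measured from vehicle.

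**Figure D4:**
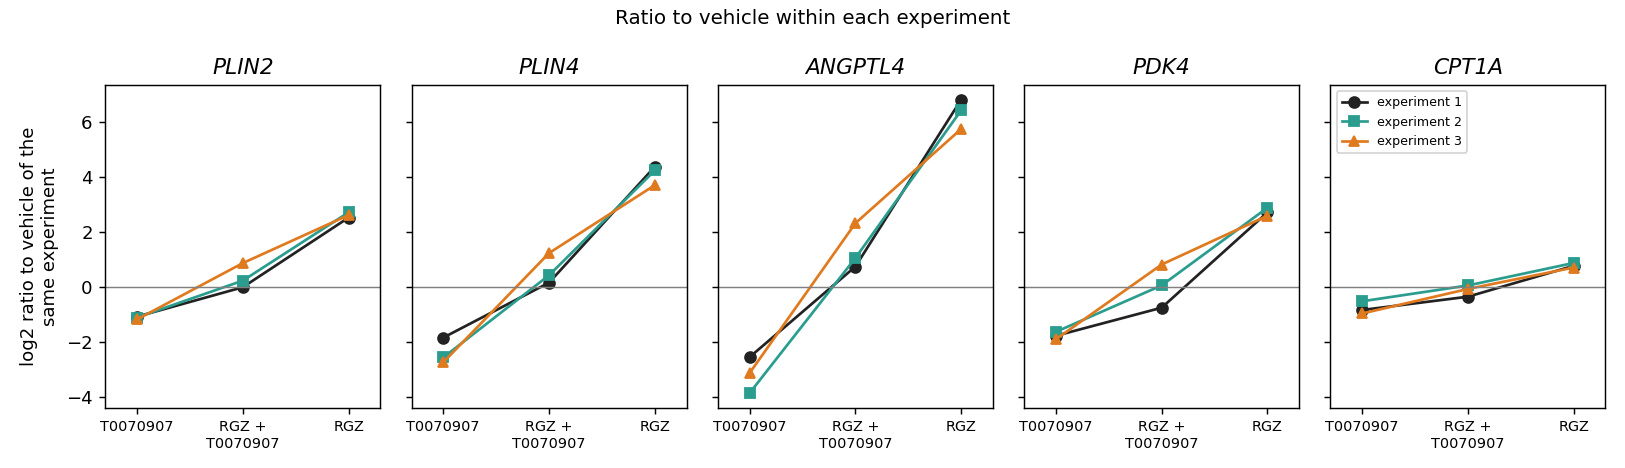
Log2 ratio to the vehicle library of the same experiment (vertical axis) in T0070907, the combination and RGZ (horizontal axis) for *PLIN2*, *PLIN4* and 3 reference targets of PPARγ, a line for each experiment. In the combination, experiment 3 lies highest for *PLIN2* (ratio 1.82), *PLIN4* (2.35), *ANGPTL4* (4.98) and *PDK4* (1.76), while for *CPT1A* experiment 2 lies highest (1.04) and experiment 3 is at 0.948.

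The combination against T0070907 asks what RGZ does once the antagonist is present. *PLIN2* was 2.1, 2.53 and 4.15 times its T0070907 level within experiments 1, 2 and 3, and *PLIN4* 4.01, 7.98 and 15.8 times. Both were higher in 3 of 3 experiments without overlap, *PLIN2* by 2.94-fold (log2 fold change 1.55, SE 0.20, adjusted p 0.0166) and *PLIN4* by 8.64-fold (3.11, SE 0.52, adjusted p 0.105, edgeR). So 1 of 5 tested members was called, beside 0.037% of all genes (5, all higher), and with the replicate block 2, beside 8.76% (1185, of which 615 were higher and 570 lower). With the block *PLIN4* was at 3.14 (SE 0.36, adjusted p 8.07e-05) and *PLIN2* at 1.52 (SE 0.13, adjusted p 6.49e-06). The other 4 genes called without the block, named after their values were seen, were *TFF2* (2.46), the actin regulator gene *COTL1* (0.59), the mitochondrial thiolase gene *ACAA2* (0.83) and the phospholipid acyltransferase gene *LPCAT3* (0.63). *PLIN3* (0.10), *CIDEB* (-0.23) and *HILPDA* (0.16) did not pass the test, and the median of the 5 members was 0.16, beside -0.01 over all genes. In edgeR fits that leave out the block, the call of *PLIN2* was lost without the T0070907 library of experiment 1, 2 or 3. The adjusted p was then 0.163, 0.121 and 0.114 with 0, 0 and 1 genes called. It was also lost in a model of these 2 conditions alone, at 0.243. *PLIN4* gained the call without the RGZ library of experiment 2 (adjusted p 0.0279), without the combination library of experiment 1 (0.0176, with 14 genes called) and with no filter on low counts (0.031). Without the combination library of experiment 3, 3 genes were called.

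The interaction tests directly whether the effect of RGZ differed with and without T0070907. For *PLIN2* the log2 effect of RGZ was smaller by 1.07 with the antagonist (interaction -1.07, SE 0.27, p 0.00218, adjusted p 1, edgeR). For *PLIN4* the interaction was -1.02 (SE 0.72, adjusted p 1), and for *PLIN3*, *CIDEB* and *HILPDA* it was 0.00, -0.26 and 0.16. Of the 5 members 0 were called, beside 0% of all genes, with 1 member and 406 genes at an unadjusted p under 0.05, and DESeq2 called 1 gene and limma-voom 0. With the replicate block 1 member was called, *PLIN2* at -1.10 (SE 0.18, adjusted p 0.0301), beside 0.281% of all genes (38, of which 15 were positive and 23 negative), and *PLIN4* at -0.97 (SE 0.53, adjusted p 0.569) was not. Without the combination library of experiment 3, *PLIN2* was the single gene called in edgeR even without the block (-1.41, adjusted p 0.0141). The median of the 5 members was -0.26, beside 0.01 over all genes. All comparisons with vehicle share its 3 libraries, and the RGZ, T0070907 and combination libraries likewise enter several comparisons. The comparisons are therefore not independent of each other.

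Other genes of lipid droplets were set beside the members from a list of 31, of which 29 were tested. In RGZ 1 of the 29 was called, as higher, beside 1.24% of all genes, and their median log2 fold change was 0.01 beside -0.01 over all genes. It was *ACSL3*, the acyl-CoA synthetase that loads nascent droplets with fatty acid, at 177 ± 11.1 CPM in vehicle, 345 ± 49.8 in RGZ, 142 ± 9.4 in T0070907 and 204 ± 36.8 in the combination (SD, n = 3). Its log2 fold change in RGZ was 0.96 (SE 0.13, adjusted p 0.00375, edgeR). With the replicate block 2 of the 29 were called, beside 9.3% of all genes, *ACSL3* and the monoglyceride lipase gene *MGLL* at 0.45 (adjusted p 0.0178). Neither the lipase that *G0S2* and *HILPDA* inhibit, *PNPLA2* (0.02), nor its coactivator gene *ABHD5* (0.01) passed the test, and the same held for the triglyceride synthesis genes *DGAT1* (-0.01) and *DGAT2* (0.19) and the seipin gene *BSCL2* (-0.12). The hormone-sensitive lipase gene *LIPE* had a log2 fold change of 0.73 that did not pass (adjusted p 0.574), and its RGZ library of experiment 2 held 10.8 CPM beside 3.85 and 2.94 in the others. In T0070907 *ACSL3* was at -0.32 (adjusted p 1), and with the block it was the 1 gene of the 29 that passed (adjusted p 0.0194), beside 0.91% of all genes, lower as *PLIN2* and *PLIN4* were. In the combination against RGZ it was again the 1 gene called, as lower (-0.76, adjusted p 0.0136), beside 1.24% of all genes, and with the block *MGLL* (-0.41, lower) and *METTL7A* (0.84, higher) were called as well, beside 11.4%. With the block 2 of the 29 were called in the combination against T0070907, *ACSL3* (0.51) and *RNF213* (-0.34), beside 8.76% of all genes, and 1 in the interaction, *ACSL3* (-0.44, adjusted p 0.0452), beside 0.281%.

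**Figure D5:**
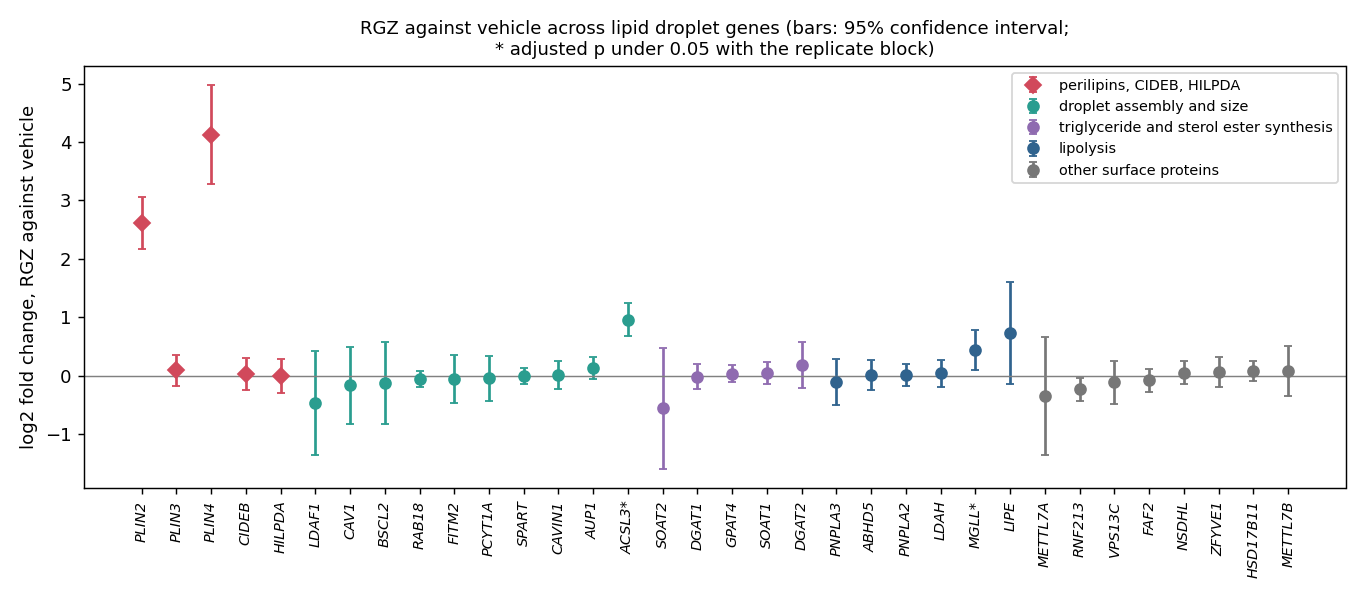
Log2 fold change in RGZ against vehicle (points) with its 95% confidence interval (bars) for the 5 tested members and the 29 tested other lipid droplet genes, grouped by role. *PLIN4* (4.13), *PLIN2* (2.62) and *ACSL3* (0.96) lie highest, and stars mark the other droplet genes called with the replicate block, *ACSL3* and *MGLL*.

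Across all 12 libraries, *PLIN2* and *PLIN4* varied together and apart from the other members. After subtraction of each experiment's mean of log2 CPM, Pearson's r was 0.996 between *PLIN2* and *PLIN4*, 0.341 between *PLIN2* and *PLIN3*, 0.223 between *PLIN2* and *CIDEB* and -0.261 between *PLIN2* and *HILPDA* (n = 12 libraries, which share conditions, so no p is given). The genes most like *PLIN2* were *TSPAN12* (0.997), *LPCAT3* (0.997), *SLC25A20* (0.997), *PLIN4* (0.996) and *ANGPTL4* (0.995). The genes most like *PLIN4* were *ANGPTL4* (0.998), *LPCAT3* (0.997), *PLIN2* (0.996), *SERPINE2* (0.994) and *SLC25A20* (0.994). Of these, *SERPINE2* did not pass the test in RGZ without the block (log2 fold change 0.67, adjusted p 0.284, edgeR) and passed with it (0.66, adjusted p 2.73e-07). The 4 reference targets of PPARγ were all called as higher in RGZ, beside 1.24% of all genes: *ANGPTL4*, a secreted lipase inhibitor (6.24, adjusted p 0.000464), *PDK4*, a kinase that spares pyruvate (2.72, adjusted p 0.00461), *CPT1A*, which brings fatty acid into mitochondria (0.78, adjusted p 0.00743), and *FABP4*, a fatty acid carrier. *FABP4* had 1 count in each vehicle library and 1895, 3513 and 1648 in RGZ, and its mean in RGZ was at least 728-fold above the mean floor of 3 counts per vehicle library. It held 1, 3 and 0 counts in T0070907 and 9, 9 and 25 in the combination. *FABP4* thus passed the filter on low counts through its RGZ libraries, so its call is no separate test. The receptor gene *PPARG* was at 82.2 ± 6.79 CPM in vehicle and 72.1 ± 4.77 in RGZ (-0.19, adjusted p 0.573, edgeR).

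Markers of other cell types were read beside the rise of *PLIN2* and *PLIN4*. The 6 adipocyte markers, which include the members *PLIN1* and *CIDEC*, summed to 3.75, 5.35 and 3.77 CPM in vehicle and to 201, 416 and 171 CPM in RGZ, nearly all of it *FABP4* at a mean of 255 CPM. The sum was 3.58, 4.3 and 4.05 CPM in T0070907 and 5.31, 5.26 and 6.43 in the combination. *ADIPOQ*, which defines adipocytes, was at 0 in all libraries, *LEP* was at 0 in vehicle and the combination, and 2 of the 6 exceeded the floor in all 3 RGZ libraries, *FABP4* and *LIPE*. The RGZ library of experiment 2 was the highest for *PLIN4* (191 CPM), *CIDEC* (31 counts), *LIPE* and *FABP4* (401 CPM), and without it *PLIN4* was still called in RGZ (log2 fold change 3.73, adjusted p 0.00135, edgeR). Of the 9 melanocyte and melanoma markers 5 exceeded the floor in all 3 vehicle libraries, with *SOX10* the most abundant at 311 CPM and *TYR* at 0, and they summed to 391, 291 and 532 CPM in vehicle, 361, 239 and 458 in RGZ, 436, 339 and 574 in T0070907 and 411, 300 and 527 in the combination. The library of experiment 3 was the highest and that of experiment 2 the lowest of each condition in this sum. With the replicate block *MITF* (-0.34, adjusted p 0.00997) and *S100B* (-1.02, adjusted p 3.73e-05) were lower in RGZ and *S100B* was higher in T0070907 (0.59, adjusted p 0.0119), where the block called 9.3% of all genes in RGZ and 0.91% in T0070907. Without the block no marker of melanocytes, keratinocytes or leukocytes passed in either comparison in edgeR. The 3 keratinocyte markers summed to 18.7, 14.3 and 33.4 CPM in vehicle, 11.2, 6.51 and 16.6 in RGZ, 27.6, 20.9 and 37.3 in T0070907 and 28.0, 13.04 and 30.4 in the combination, with *KRT14* the most abundant and *KRT1* at 0. With the replicate block *KRT14* was lower in RGZ (-0.94, adjusted p 0.000182). The leukocyte pair *PTPRC* and *CD68* summed to 39.9, 73.8 and 35.5 CPM in vehicle and 49.6, 97.3 and 52.1 in RGZ, all of the latter *CD68*, which passed the test with the block (0.42, adjusted p 0.000827), and *PTPRC* was at 0 in RGZ. The leukocyte sum was 40.1, 69.0 and 33.3 in T0070907 and 39.5, 71.7 and 39.6 in the combination. Here the library of experiment 2 was the highest of each condition. In the combination against RGZ, where *PLIN2* and *PLIN4* fell, the block called *MITF* (0.27), *S100A1* (0.44), *S100B* (1.34), *KRT14* (adjusted p 3.2e-05) and the receptor gene *PPARG* (0.20, adjusted p 0.0483) as higher and *CD68* (-0.39) as lower, beside 11.4% of all genes. Without the block none of these named genes passed in edgeR. Of the endothelial pair, *PECAM1* held 0, 2 and 2 counts in vehicle, 3, 12 and 4 in RGZ, 1, 2 and 0 in T0070907 and 0, 2 and 2 in the combination, so that its RGZ libraries were the highest. *CDH5* held 6, 16 and 2 counts in vehicle, 3, 7 and 1 in RGZ, 1, 21 and 4 in T0070907 and 4, 19 and 3 in the combination, and these overlapped. The endothelial pair summed to at most 2.21 CPM and the hepatocyte pair to at most 0.119 CPM in any library, with *ALB* at 0 in all. The part of these markers in the results of *PLIN2* and *PLIN4* was not tested.

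Shared sequence touched the members unequally. Of the 50-base words of the longest transcript, 0.988% in *PLIN2* and 0% in *PLIN4* occur in another gene, while 4.79% of those in *PLIN4* recur within *PLIN4* itself. The share was 18% in *PLIN3*, 18.5% in *PLIN5*, 5.53% in *HILPDA*, 2.85% in *CIDEC* and 0% in *PLIN1*, *CIDEA* and *G0S2*. On the annotation, *PLIN4* shares 32 exon bases with *HDGFL2* on the opposite strand, whose level was 110 ± 11.9 CPM in vehicle and 111 ± 3.13 in RGZ (SD, n = 3; log2 fold change 0.01, adjusted p 0.984, edgeR). *PLIN3*, *PLIN4* and *PLIN5* lie on chromosome 19, where on GRCh38 *PLIN4* spans chr19:4502180-4518465 and *PLIN5* chr19:4522531-4535224, and *PLIN5* stayed at or under the floor in all conditions.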

How the data were processed

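RNA-seq counts of 12 libraries were used (A375 cells, 4 conditions, 3 experiments). The authors deposited raw counts per gene, listed by NCBI gene number, aligned to hg19 without normalization, and the aligner, annotation and strand setting are not given in the sources used here. Symbols were found for 23538 of 23705 genes. In R 4.3.3, edgeR 4.0.16 scaled libraries by TMM, filtered by filterByExpr and fitted a quasi-likelihood model of 4 groups to all 12 libraries, with Benjamini-Hochberg adjustment over 13522 genes and a threshold of 0.05. The SE is the log2 fold change divided by the square root of F. Libraries of the same experiment deviated together from their condition means (mean correlation 0.554, from 0.0793 to 0.758, n = 18 pairs, beside -0.27 for other pairs, n = 36), so the experiment was also fitted as a replicate block. Members under the filter were compared by exact permutation over the 20 arrangements of 3 against 3 libraries, without pairing by experiment.

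Alternatives were DESeq2 1.42.0, limma-voom (3.58.1) and both edgeR and limma-voom with the block, DESeq2's size factors in edgeR, no filter, at least 10 counts in every library, only the groups compared, a threshold of 0.01 and leaving out each library. Named were all members, 6 other droplet genes whatever they did and each droplet gene called in any comparison with or without the block. Hypoxia-induced genes called, reference targets, *PPARG*, and the 5 genes most like each called member were named as well. Members and lists were chosen with earlier results of these data known. The tests were tried on simulated data.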

Additional observations from a re-analysis of the deposited data

Results flagged for a closer look

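The difference between the effect of RGZ with and without T0070907 on *PLIN2* passed its own test with the replicate block (interaction -1.10 on the log2 scale, SE 0.18, adjusted p 0.0301, edgeR). It did not pass without the block (-1.07, adjusted p 1). The effect of RGZ itself was 2.62 without and 1.55 with the antagonist, and the reason for the difference was not tested.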

How the results depend on the processing

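The calls of *PLIN2* and *PLIN4* in RGZ against vehicle and in the combination against RGZ held, with 2 members called under each alternative, and 0 members and 0 genes were called under each alternative for the combination against vehicle. Over all alternatives, the log2 fold change of a tested member kept its direction and its side of the threshold 553 times, passed the threshold newly 17 times, no longer passed 4 times and changed sign 21 times, each time in a gene not called. Scaling by DESeq2's factors changed no member's call, and the vehicle levels of the 5 tested members moved by less than 1 SD, while levels in the other conditions were not recomputed. Where a value changed, the cause was not tested.

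In the order RGZ against vehicle, T0070907 against vehicle, combination against RGZ, combination against T0070907 and interaction, the genes called were 302, 21, 318, 83 and 1 with DESeq2, 1258, 123, 1545, 1185 and 38 with the replicate block and 1220, 109, 1466, 1009 and 21 with limma-voom and the block. With only the groups compared they were 69, 1, 41 and 0 in the first 4, and at a threshold of 0.01 they were 48, 0, 41 and 0. T0070907 gave 0 genes with limma-voom, 3 with no filter and 0 with at least 10 counts in every library, and the combination against T0070907 gave 10 with no filter. Leaving out 1 library gave 45 to 168, 0 to 5, 53 to 148, 0 to 14 and 0 to 1 genes.

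Members called in T0070907 were 2 with DESeq2, 2 with the replicate block, 2 with limma-voom and the block, 1 with only the groups compared and 0 to 1 without a library. In the combination against T0070907 they were 2 with the block, 2 with limma-voom and the block, 2 with no filter, 0 with only the groups compared, 0 at 0.01 and 0 to 2 without a library. In the interaction they were 1 with the block, 1 with limma-voom and the block and 0 to 1 without a library. The block, which pairs libraries by experiment, changed no other call of a member, and its interaction for *PLIN2* was -1.10 (adjusted p 0.0301).

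Signs changed near 0, within these ranges over the models without a library. In RGZ, *CIDEB* ran from -0.0224 without the vehicle library of experiment 2 to 0.0788, and *HILPDA* from -0.0842 to 0.0807 without the RGZ library of experiment 2. In T0070907, *PLIN3* ran from -0.0617 without the T0070907 library of experiment 2 to 0.155, and *CIDEB* from -0.0757 to 0.0248 without the vehicle library of experiment 3. In the combination against RGZ, *PLIN3* ran from -0.0569 without the combination library of experiment 2 to 0.133. In the interaction, *PLIN3* ran from -0.119 without the vehicle library of experiment 2 to 0.103, and it was -0.00748 with limma-voom, -0.00622 with the block, -0.00636 with both and -0.00118 with no filter, beside 0.00 as reported.

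At 3 counts per library the depth limits what can be said of *PLIN1*, *PLIN5*, *CIDEA*, *CIDEC* and *G0S2*. Doses other than 5 μM of RGZ and 2 μM of T0070907, times other than 24 h, protein levels and droplets were not measured. All libraries come from a single cell line.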
